A study of Mus musculus with 2 samples.

Results

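Classical Ly6c-high monocytes were followed in droplet single-cell RNA sequencing of mouse liver. They were chosen by a gate on transcript counts and numbered 271 of the 20753 barcodes kept, with 136 in the CCl4+IPA library and 135 in the CCl4 library. The study took cells from livers of mice made fibrotic with carbon tetrachloride (CCl4), a hepatotoxin, and its title concerns indole propionic acid (IPA), a gut-derived indole, and profibrogenic macrophages. There were 2 groups with 1 library each: CCl4+IPA, from fibrotic mice given IPA as well, and CCl4, from fibrotic mice without IPA. Both groups carried the CCl4 injury, and no uninjured liver is analysed here. Strain, age, dosing and the number of animals per library are not given in the sources used here. With 1 library per group no test was possible, so every difference is between these 2 libraries and not between treatments. Intervals are exact 95% intervals that cover counting error only.

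Classical monocytes leave the bone marrow through the chemokine receptor Ccr2, circulate with a high level of the surface protein Ly6C, and enter injured liver. There they can become macrophages, first inflammatory and later reparative, and they are a main source of the profibrogenic macrophages of the CCl4 model. Nonclassical monocytes, which arise from them, patrol vessels, lose Ly6C and Ccr2, and gain Cx3cr1. Type I interferon acts on monocytes through receptor-bound kinases and transcription factors, Stat2 and Irf9 among them, which switch on a broad set of antiviral genes.

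A barcode, the tag of 1 droplet, was kept with at least 500 unique molecular identifiers (UMIs, 1 per captured transcript), at least 300 genes and under 20% mitochondrial UMIs. A monocyte then needed at least 5 UMIs of Lyz2, the lysozyme of myeloid cells, and at least 3 of the 6 genes Ccr2, F13a1, Fn1, Vcan, Chil3 and Ms4a4c. It could hold at most 2 UMIs of the macrophage complement genes C1qa, C1qb and C1qc together, and fewer than 3 of the nonclassical genes Ace, Treml4, Ear2, Adgre4 and Spn. It could hold no UMI of the lymphocyte genes Cd3e and Cd79a or the dendritic cell genes Siglech and Cd209a, and at most 2 UMIs of the neutrophil gene Csf3r. The levels of these genes follow from the gate and are descriptions. The members held 935627 UMIs in the CCl4+IPA library, with a median of 6366 per cell, against 1246672 and a median of 8254 in the CCl4 library. Over all barcodes the libraries held 37983923 UMIs in the CCl4+IPA library and 45009730 in the CCl4 library. Mitochondrial genes gave a median of 1.39% of a member's UMIs in the CCl4+IPA library and 2.85% in the CCl4 library. No member carried any of the 23 barcodes that occur in both libraries.

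The gated cells carried Ly6c2, which the gate did not use and which encodes the Ly6C antigen that names the cell type. It was found in 95.6% of members in the CCl4+IPA library and 91.1% in the CCl4 library. Thinned to 1000 UMIs per cell, the shares were 79.9% in CCl4+IPA and 62.9% in CCl4, against 3.03% and 3.06% of B cells in the CCl4+IPA and CCl4 libraries, where little of it should be made. Levels below are in CPM, the UMIs of a gene summed over the cells of a type per 1000000 UMIs of that type. Ly6c2 stood at 2477.5 CPM in members of the CCl4+IPA library and 1619.5 CPM in those of the CCl4 library. The 6 CCl4+IPA and 12 CCl4 members with at least 10 UMIs of granule genes held it at 3969 and 2856 CPM. By a rule chosen after seeing the data, 13 CCl4+IPA and 20 CCl4 members with granule, cell cycle or many MHC class II transcripts were left out. Without them Ly6c2 stood at 2398 CPM in the CCl4+IPA library and 1281 CPM in the CCl4 library. In nonclassical monocytes, gated by at least 3 of the 5 nonclassical genes, it stood at 838 CPM (29 cells) in the CCl4+IPA library and 515 CPM (60 cells) in the CCl4 library. T cells held 485 and 596 CPM in the CCl4+IPA and CCl4 libraries, and Cd209a-positive dendritic cells 139.5 and 64.4 CPM. The members were thus the highest of the 7 gated types in both libraries. The data fit the label on this marker.

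**Figure D1:**
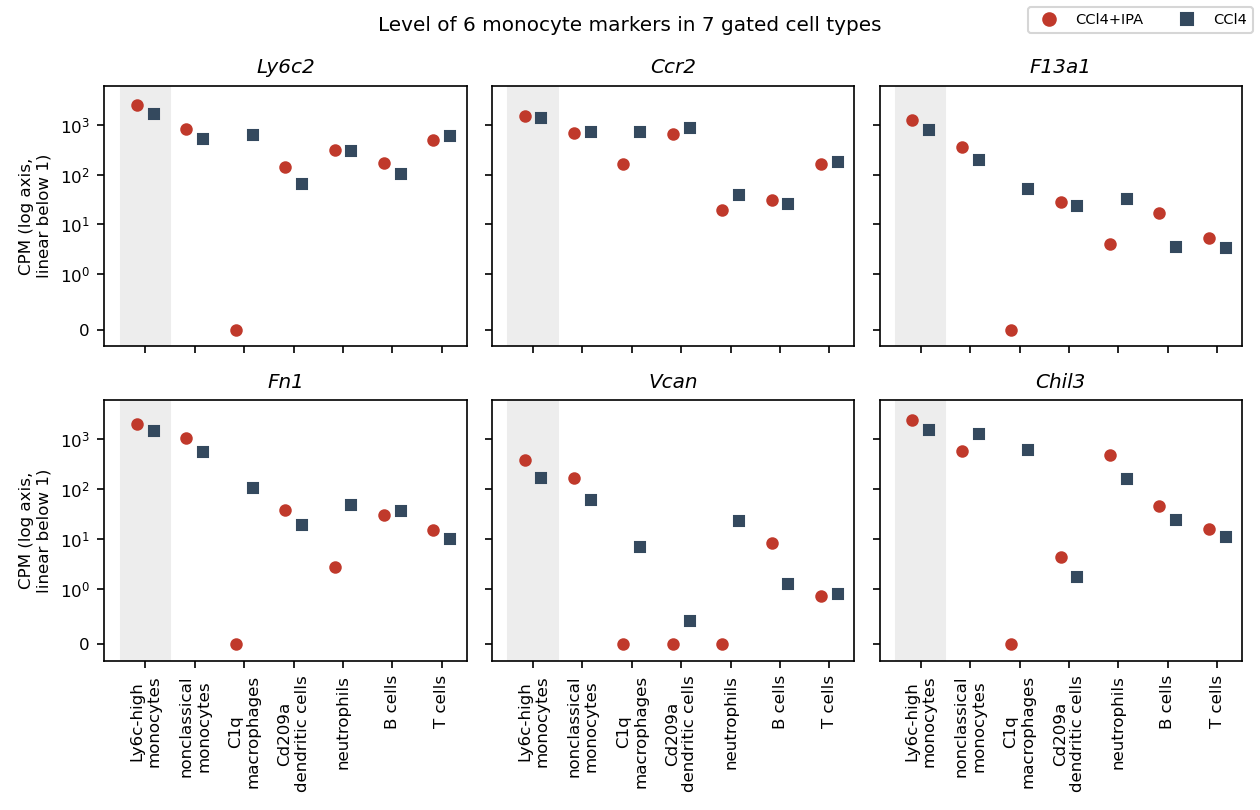
Level of Ly6c2 and of 5 genes used by the gate in 7 gated cell types, in CPM on a log axis that is linear below 1, with circles for the CCl4+IPA library and squares for the CCl4 library. Ly6c2 reached 2477.5 CPM and 1619.5 CPM in Ly6c-high monocytes (shaded) of the CCl4+IPA and CCl4 libraries, above every other type shown, of which the C1q macrophages of the CCl4+IPA library rest on 6 cells.

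At the edge of the gate, cells with only 2 of the 6 genes were left out. There were 11 of these in the CCl4+IPA library, with Ly6c2 at 495 CPM, and 25 in the CCl4 library, with 702 CPM. Cells just inside, with 3 of the 6, numbered 12 in the CCl4+IPA library with Ly6c2 at 2898 CPM and 10 in the CCl4 library with 1978 CPM. All 6 genes were detected in 64 members of the CCl4+IPA library and 41 of the CCl4 library. The rule that allows no lymphocyte or dendritic cell UMI took out 50 cells in the CCl4+IPA library and 52 in the CCl4 library that passed the other criteria.

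Outside the gate's genes, the gene with the largest fold over all other kept cells was F10, which encodes coagulation factor X. It stood at 207 CPM in members against 4.99 CPM in the other cells of the CCl4+IPA library, and at 157 CPM against 3.85 CPM in the CCl4 library. Nonclassical monocytes held it too, at 177 CPM in the CCl4+IPA library and 87.1 CPM in the CCl4 library. Klra2, Ly6a2, Clec4a3, Tppp3, Gpr141, Clec4a1, Stom, Idh1, Ifi204, Cd14, Tgfbi, Ms4a6c and Cd302 were also among the 15 with the largest folds, in that order. Not all of these set the members apart from nonclassical monocytes. Clec4a3, Tppp3 and Clec4a1 stood higher in nonclassical monocytes than in members in both libraries. Gpr141 and Cd302 did so in the CCl4 library only, and Idh1 in the CCl4+IPA library only. Clec4a3, a C-type lectin, stood at 306 CPM in members and 496 CPM in nonclassical monocytes of the CCl4+IPA library, and at 292 and 569 CPM in the CCl4 library. Since the cells were gated on genes of the same family of cells, these folds are descriptions.

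Several markers of resident liver macrophages were missing. The Kupffer cell genes Clec4f, Vsig4, Timd4, Cd5l and Folr2, which the gate did not use, had no UMI in any member. C1qa and C1qc had none either. The gate capped the C1q genes and so left out macrophages rich in them. Nothing is therefore read from the absence of any of these genes. A gene is called measured below where it had at least 50 UMIs over both libraries. Hepatocyte genes summed to 229 CPM in CCl4+IPA members and 213 CPM in CCl4 members. Stromal and endothelial genes summed to 25.7 CPM in CCl4+IPA members and 16.0 CPM in CCl4 members.

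Ly6c-high monocytes made up the same share of both libraries within counting error. They were 1.30% of kept barcodes in the CCl4+IPA library (1.09% to 1.54%; 136 of 10459) and 1.31% in the CCl4 library (1.10% to 1.55%; 135 of 10294). The ratio of the shares was 0.992, with an interval of 0.776 to 1.27. Other myeloid gates differed in cell number in both directions. C1q macrophages numbered 6 in the CCl4+IPA library and 83 in the CCl4 library, Cd209a-positive dendritic cells 57 in CCl4+IPA and 256 in CCl4, nonclassical monocytes 29 in CCl4+IPA and 60 in CCl4, and neutrophils 702 in CCl4+IPA and 561 in CCl4. A share depends on all other cells in the suspension, so fewer cells of this type and more of the others cannot be told apart.

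Of 5272 genes measured in the members, 794 (15.1%) were at least 1.5-fold higher in the CCl4+IPA library and 286 (5.42%) at least 1.5-fold lower. The median log2 ratio of all measured genes was 0.14, so the medians of gene lists below are also given less this shift. Of the 15 higher genes farthest from 1, 9 were interferon-stimulated genes, and Thbs1, Il1b, Egr1, Csrnp1 and Arid5a were among the others. The 15 lower ones held 6 histone genes, 4 progenitor granule genes, Hpgd, Top2a, Lars2, Mir6236 and Rn18s-rs5. Of these, Rn18s-rs5, an 18S ribosomal RNA-related sequence, stood at 8501 CPM in CCl4+IPA members and 56623 CPM in CCl4 members, and was 4.75-fold to 8.63-fold lower in the CCl4+IPA library in each of the other 6 gates too. With Rn18s-rs5 and mitochondrial genes left out of the totals, a setting chosen after seeing the data, 553 genes were at least 1.5-fold higher and 380 at least 1.5-fold lower. Dividing all ratios by their median gave 475 higher and 443 lower genes. The split between the directions therefore depends on the scaling.

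The clearest group was the type I interferon-stimulated genes. Of 44 genes listed 38 were measured, and 37 of these were at least 1.5-fold higher in the CCl4+IPA library, against 15.1% of all genes, and none was at least 1.5-fold lower. The exception was Ms4a4c, at 1.44-fold (1.28 to 1.62), which the gate used. The list's median log2 ratio was 1.25, or 1.10 above the median of all genes. Its summed level was 10465 CPM in CCl4+IPA members and 5625 CPM in CCl4 members.

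Ifit1 (ENSMUSG00000034459), which encodes an interferon-induced protein that binds foreign RNA, had 104 UMIs in 30 cells of the CCl4+IPA library, against 16 UMIs in 8 cells of the CCl4 library. Its levels were 111 CPM (90.8 to 135) in CCl4+IPA and 12.8 CPM (7.34 to 20.8) in CCl4, a ratio of 8.66 (5.09 to 15.7). A single cell held 22.1% of these UMIs in the CCl4+IPA library and another 37.5% in the CCl4 library, and with every cell given equal weight the ratio was 4.95. Ifit3 (ENSMUSG00000074896), of the same family, had 100 UMIs in 44 cells of the CCl4+IPA library, against 16 UMIs in 8 cells of the CCl4 library, a ratio of 8.33 (4.88 to 15.1). Thinned to 1000 UMIs per cell, Ifit1 was found in 8.96% of CCl4+IPA and 3.03% of CCl4 members, against 11.9% and 11.8% of T cells in the CCl4+IPA and CCl4 libraries. Ifit3 was found in 11.2% of CCl4+IPA and 0.758% of CCl4 members, against 3.38% and 3.28% of T cells. Rsad2, which encodes the antiviral enzyme viperin, stood at 154 CPM in CCl4+IPA and 44.1 CPM in CCl4 (ratio 3.49, 2.54 to 4.85).

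Genes of the signalling arm were on the same side. Stat2, a subunit of the factor that type I interferon activates, stood at 149.6 CPM in CCl4+IPA and 49.7 CPM in CCl4, a ratio of 3.01 (2.22 to 4.13). Its partner Irf9 had a ratio of 1.69 (1.30 to 2.19). Irf7, the factor that amplifies interferon production, stood at 188 CPM in CCl4+IPA and 81.8 CPM in CCl4 (ratio 2.30, 1.79 to 2.96). The cytosolic RNA sensors Ddx58 and Ifih1, which encode RIG-I and MDA5, had ratios of 2.63 (1.75 to 4.02) and 2.38 (1.71 to 3.36). Usp18, which restrains the receptor, had a ratio of 3.07 (1.91 to 5.08).

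Among the effectors, Isg15, a ubiquitin-like modifier, stood at 242 CPM in CCl4+IPA and 100.3 CPM in CCl4 (ratio 2.41, 1.93 to 3.02). Cxcl10, a chemokine that attracts T cells, stood at 279 CPM in CCl4+IPA and 104 CPM in CCl4 (ratio 2.68, 2.16 to 3.33). Thinned to 1000 UMIs it was found in 8.96% of CCl4+IPA and 7.58% of CCl4 members, below the 11.6% and 11.9% of T cells in the CCl4+IPA and CCl4 libraries, so no difference in the share of cells is read from it. Oas3 and Oasl2, of the oligoadenylate synthetase family, had ratios of 2.55 (1.84 to 3.57) and 2.36 (1.85 to 3.03). Ifi27l2a was by far the most abundant gene of the list, at 3433 CPM in CCl4+IPA and 2232 CPM in CCl4, with a ratio of 1.54 (1.46 to 1.62).

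**Figure D2:**
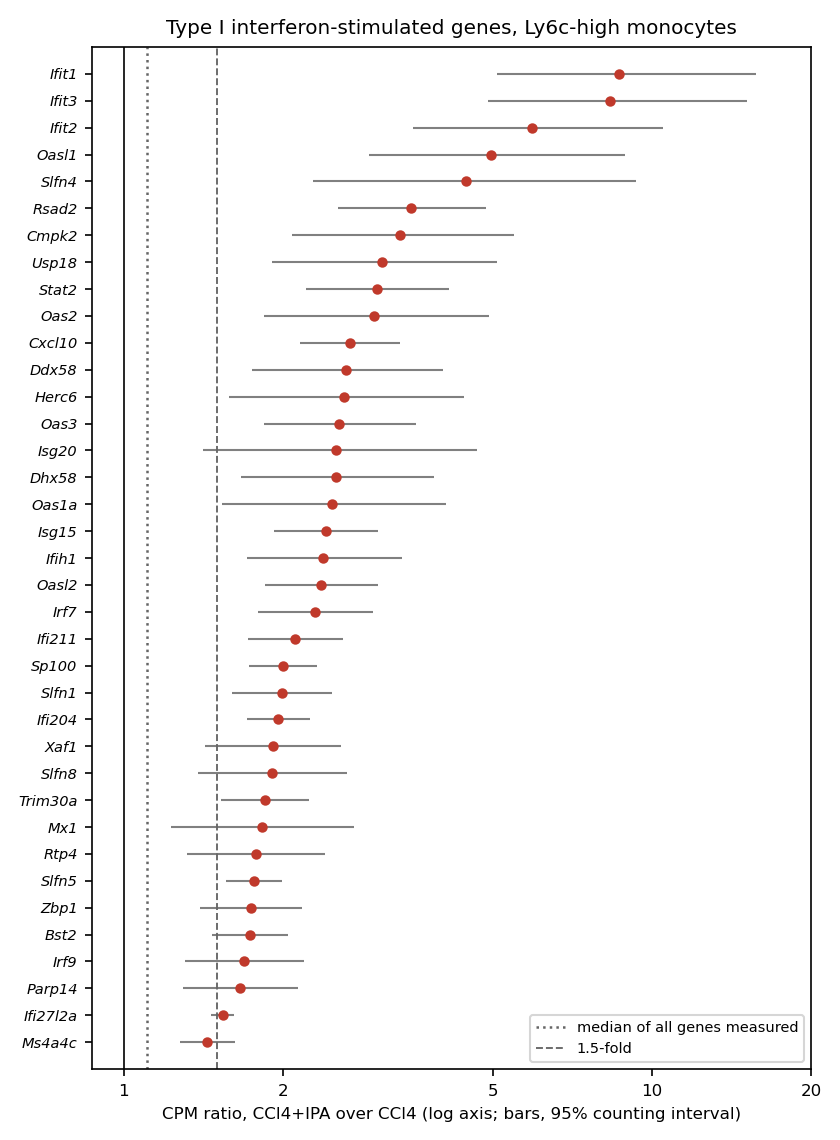
CPM ratio of 37 of the 38 measured type I interferon-stimulated genes, CCl4+IPA over CCl4, in Ly6c-high monocytes, on a log axis with 95% counting intervals. Every point lies right of the dotted median of all genes, 36 lie right of the dashed 1.5-fold line, and Ifit1 (8.66) and Ifit3 (8.33) lie farthest to the right.

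The difference was seen across most cells. Summed over the list, a CCl4+IPA member held a median of 94.5 interferon-stimulated UMIs per 10000 of its UMIs, against 54.4 in a CCl4 member. The 10th and 90th percentiles were 47.1 and 196 in CCl4+IPA, against 22.6 and 113 in CCl4. Of the 136 CCl4+IPA members 115 lay above the CCl4 median, and 48 lay above the CCl4 90th percentile, so the distributions overlapped but were displaced along most of their length. Left out by a rule chosen after seeing the data were 13 CCl4+IPA and 20 CCl4 members with granule, cell cycle or many MHC class II transcripts. Without them 35 of 37 measured genes were at least 1.5-fold higher, with a list median of 1.03 beside 0.16 for all genes.

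**Figure D3:**
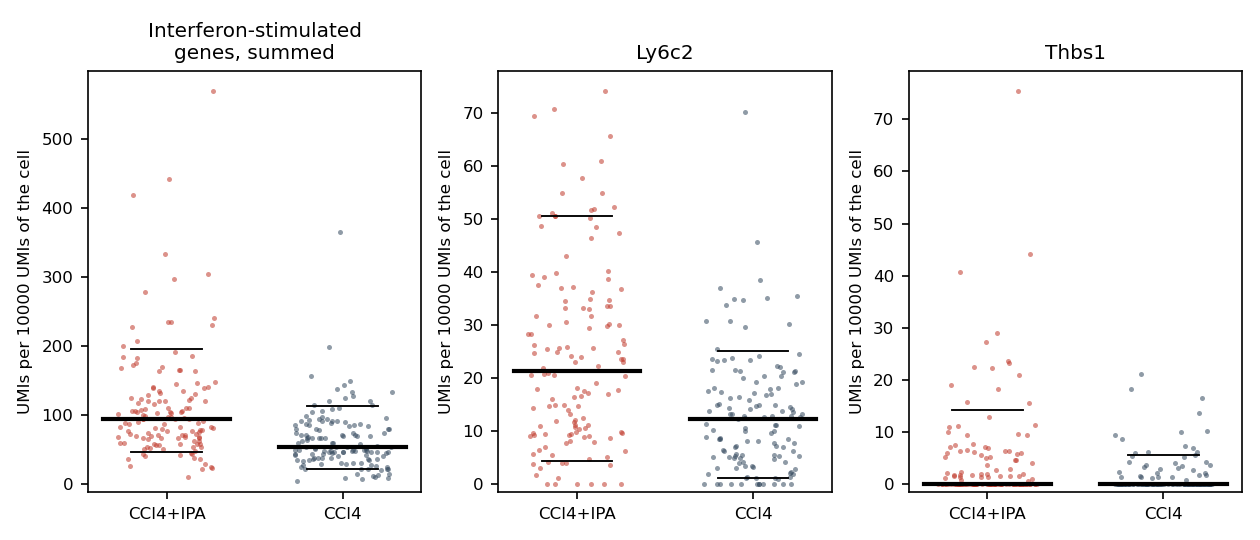
UMIs per 10000 UMIs in each Ly6c-high monocyte for the summed interferon-stimulated genes, Ly6c2 and Thbs1, with CCl4+IPA left (136 cells) and CCl4 right (135 cells). Thick lines are medians and thin lines the 10th and 90th percentiles; for interferon-stimulated genes the medians are 94.5 in CCl4+IPA and 54.4 in CCl4, for Ly6c2 21.4 and 12.3, and for Thbs1 both are 0.

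In other gated types the interferon list had smaller medians. Its median less that of all genes was 0.68 in neutrophils (34 genes measured), 0.46 in nonclassical monocytes (13 genes), 0.31 in Cd209a-positive dendritic cells (37 genes) and in C1q macrophages (12 genes), 0.21 in B cells (43 genes) and -0.21 in T cells (43 genes), against 1.10 in the members. Ifit1 stood at 277 CPM in CCl4+IPA neutrophils and 75.1 CPM in CCl4 neutrophils (ratio 3.68), and at 229.6 and 228 CPM in T cells (ratio 1.01, 0.943 to 1.08). Each median is over the genes measured in that gate, not over a common set, so the medians are not compared gene for gene. The difference between cell types was not tested.

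Promoters of these genes are shown because the same short motif recurs in them. Each sequence is the RefSeq promoter, 250 bases before to 50 after the gene's start, in build GRCm38.p6, read 5′ to 3′ on the gene's strand. Capitals mark the motif searched for on both strands, a core of the interferon-stimulated response element: GAAA, any 2 bases and GAAA again, or its reverse complement, TTTC, any 2 bases and TTTC.
Ifit1 (chr19:34640639-34640938, forward strand): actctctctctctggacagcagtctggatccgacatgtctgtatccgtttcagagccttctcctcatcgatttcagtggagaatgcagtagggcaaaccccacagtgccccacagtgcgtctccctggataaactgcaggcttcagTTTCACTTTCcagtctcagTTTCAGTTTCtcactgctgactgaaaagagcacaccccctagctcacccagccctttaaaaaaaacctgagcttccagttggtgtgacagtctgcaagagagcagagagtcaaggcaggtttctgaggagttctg
Ifit3 (chr19:34583279-34583578, forward strand): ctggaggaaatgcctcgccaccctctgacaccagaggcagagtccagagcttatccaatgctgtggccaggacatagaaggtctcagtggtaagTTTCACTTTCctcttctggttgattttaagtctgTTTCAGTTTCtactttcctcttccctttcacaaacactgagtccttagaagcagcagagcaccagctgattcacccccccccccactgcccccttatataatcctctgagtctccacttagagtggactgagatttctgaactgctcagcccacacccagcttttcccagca
Rsad2 (chr12:26456403-26456702, reverse strand): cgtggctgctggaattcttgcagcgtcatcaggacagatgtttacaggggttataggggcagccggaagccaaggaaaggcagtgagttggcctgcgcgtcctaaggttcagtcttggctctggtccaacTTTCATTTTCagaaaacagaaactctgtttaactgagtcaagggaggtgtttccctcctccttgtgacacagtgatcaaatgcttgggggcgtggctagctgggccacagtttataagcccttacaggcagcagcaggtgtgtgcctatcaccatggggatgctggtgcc
Cxcl10 (chr5:92348840-92349139, reverse strand): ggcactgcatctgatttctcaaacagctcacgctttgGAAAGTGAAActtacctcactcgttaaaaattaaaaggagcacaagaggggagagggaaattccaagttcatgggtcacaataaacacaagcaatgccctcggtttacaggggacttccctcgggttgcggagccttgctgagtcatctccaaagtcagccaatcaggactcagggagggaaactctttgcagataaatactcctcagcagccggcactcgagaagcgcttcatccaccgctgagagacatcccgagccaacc
Isg15 (chr4:156200769-156201068, reverse strand): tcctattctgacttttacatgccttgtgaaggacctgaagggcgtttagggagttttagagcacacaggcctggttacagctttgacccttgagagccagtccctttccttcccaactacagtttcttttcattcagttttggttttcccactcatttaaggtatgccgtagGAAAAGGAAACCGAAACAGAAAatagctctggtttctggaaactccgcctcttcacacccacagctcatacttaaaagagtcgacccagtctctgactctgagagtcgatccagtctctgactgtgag
The motif starts 104 and 85 bases upstream of the Ifit1 start, 156 and 122 bases upstream for Ifit3, 120 for Rsad2 and 213 for Cxcl10. In Isg15 it starts 78, 72 and 66 bases upstream, as 3 matches that overlap each other. Stat2 and Oas3 hold it at 222 and 75 bases upstream, while the windows of Oasl2 and Irf7 hold none. Of the 38 measured interferon-stimulated genes 28 matched the RefSeq table by symbol, and 15 of them (53.6%) hold the motif on either strand. It occurs in 3.44% of all 32851 promoters of the table and in 4.94% of the 4253 genes measured in the members that have one. A match describes the sequence and does not show binding.

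Genes more often tied to interferon gamma were less uniform. Of 22 listed 10 were measured, and 5 of these were at least 1.5-fold higher in the CCl4+IPA library (against 15.1% of all genes) and 1 at least 1.5-fold lower (against 5.42%). Irf1, a factor that both interferons induce, stood at 187 CPM in CCl4+IPA and 86.6 CPM in CCl4 (ratio 2.16, 1.69 to 2.77). Gbp3 and Gbp7, guanylate-binding proteins of cell-intrinsic defence, had ratios of 2.18 (1.48 to 3.25) and 2.09 (1.36 to 3.25). Cxcl9, a chemokine that depends on interferon gamma, had 0 UMIs in the CCl4+IPA members and 56 UMIs in 3 of the CCl4 members. With the members holding granule, cell cycle or MHC class II genes left out, Cxcl9 was below the minimum, with 33 UMIs in CCl4. Of 8 genes then measured 6 were at least 1.5-fold higher, against 14.6% of all genes, and none was lower by that much. Nos2 had no UMI in either library.

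Identity genes of classical monocytes stood higher in the CCl4+IPA members. Of 24 measured genes outside the gate, 24 had ratios above 1 (against 64.1% of all genes) and 9 were at least 1.5-fold higher (37.5%, against 15.1% of all genes), with a median log2 ratio of 0.42, or 0.28 above the median of all genes. With ratios divided by that median, 20 of the 24 remained above 1. Ly6c2 had a ratio of 1.53 (1.44 to 1.62), and per cell a median of 21.4 UMIs per 10000 in CCl4+IPA and 12.3 in CCl4. Ccl6, Ccl9, Gda and Klra2 had ratios of 1.63, 1.58, 1.60 and 1.80. Spi1, the lineage factor PU.1, and S100a4 had ratios of 1.04 and 1.01, with intervals that included 1.

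Without the members holding granule, cell cycle or MHC class II genes, 5 of the 24 identity genes were at least 1.5-fold higher, near the 14.6% of all genes, and 20 had ratios above 1. Ly6c2 then had a ratio of 1.87. Of the gate's own genes, Vcan, encoding versican, stood at 382 CPM in CCl4+IPA and 168 CPM in CCl4, and Ccr2 at 1522 CPM in CCl4+IPA and 1344 CPM in CCl4. The 5 measured nonclassical genes outside the gate's rule had a median log2 ratio of 0.16, or 0.02 above the median of all genes. Against 15.1% of all genes, 1 of these 5 was at least 1.5-fold higher. Of these, Cx3cr1 stood at 254 CPM in CCl4+IPA and 294 CPM in CCl4 (ratio 0.866, 0.733 to 1.02) and Nr4a1, the factor needed for nonclassical monocytes, at 1159 and 732 CPM (ratio 1.58, 1.45 to 1.73). Without those members their ratios were 0.778 (0.653 to 0.926) and 1.38 (1.26 to 1.52). Nr4a1 is also an immediate early gene.

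Thbs1 (ENSMUSG00000040152) codes for thrombospondin-1, which is laid down in matrix and can free TGF-beta from its latent form. It had the largest ratio of the measured profibrogenic genes. It stood at 421 CPM (381 to 465) in CCl4+IPA members and 132 CPM (113 to 154) in CCl4 members, a ratio of 3.18 (2.65 to 3.84). It was detected in 64 of 136 CCl4+IPA cells and 38 of 135 CCl4 cells, and no cell held more than 10.7% of its UMIs in either library. Thinned to 1000 UMIs per cell, 27.6% of CCl4+IPA and 8.33% of CCl4 members held it, against 0.557% and 0.211% of B cells. Nonclassical monocytes had a similar ratio, 3.11 (2.03 to 4.80), and neutrophils a ratio of 0.808 (0.668 to 0.975).

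The profibrogenic and matrix list had 12 measured genes of 27, with 6 at least 1.5-fold higher in the CCl4+IPA library (against 15.1% of all genes) and none lower by that much. Its median log2 ratio was 0.59, or 0.45 above all genes. The list's median less that of all genes was larger in nonclassical monocytes, at 0.94 (11 genes measured). It was 0.25 in Cd209a-positive dendritic cells, 0.11 in B cells, -0.01 in T cells, -0.14 in neutrophils and -0.71 in C1q macrophages. Fn1, Vcan and F13a1 of this list were used by the gate, and outside it 4 of 9 genes were at least 1.5-fold higher: Thbs1, Il1b, Osm and Mmp8. Without the members holding granule, cell cycle or MHC class II genes 4 of the 12 genes were at least 1.5-fold higher, against 14.6% of all genes. Of these, Vcan (2.16) and F13a1 (1.68) were used by the gate. Outside the gate only Thbs1 (2.98) and Osm (1.61) stayed past that mark, while Il1b and Mmp8 fell below it, at 1.46 and 1.45. Tgfb1, encoding the main fibrogenic cytokine, stood at 369.8 CPM in CCl4+IPA and 335 CPM in CCl4, with a ratio of 1.10 (0.954 to 1.27). Tgfbi, encoding a TGF-beta-induced matrix protein, had a ratio of 1.47 (1.31 to 1.65). Pdgfb, a mitogen of stellate cells, had 0 UMIs in CCl4+IPA and 5 in CCl4. Spp1, osteopontin, was below the minimum, with 21 UMIs in 2 CCl4+IPA cells and 6 UMIs in 5 CCl4 cells.

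Inflammatory genes differed in both directions. Of 16 measured cytokine and chemokine genes 9 were at least 1.5-fold higher in the CCl4+IPA library (against 15.1% of all genes) and 2 at least 1.5-fold lower (against 5.42%), with a median log2 ratio of 0.63, or 0.49 above all genes. Without the members holding granule, cell cycle or MHC class II genes 5 of 15 were at least 1.5-fold higher, against 14.6% of all genes. Another 2 were at least 1.5-fold lower, against 2.56%. In nonclassical monocytes the list's median was 0.62 above all genes (7 genes measured), and in every other gate it was below that of all genes. Il1b, encoding interleukin-1 beta, stood at 1116 CPM in CCl4+IPA and 586 CPM in CCl4 (ratio 1.90, 1.73 to 2.09), with a ratio of 1.46 without those members. Ccl4 had a ratio of 1.71 (1.53 to 1.91), Osm, oncostatin M, 1.52 (1.26 to 1.83), and Ptgs2, the inducible cyclooxygenase, 2.01, on 68 UMIs in CCl4+IPA and 45 in CCl4. Ccl2, the ligand of Ccr2 that draws more monocytes to the liver, was lower, at 80.2 CPM in CCl4+IPA and 145 CPM in CCl4 (ratio 0.552, 0.416 to 0.727). Tnf had few UMIs, 29 in CCl4+IPA and 49 in CCl4, and an interval of its ratio that included 1. Il10, Ccl7 and Ccl12 had no UMI in any member.

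Genes of the NF-kB pathway, which drives many of these cytokines, followed with smaller ratios. Of 21 measured 8 were at least 1.5-fold higher (against 15.1% of all genes) and none lower by that much. Among the 8 were the feedback inhibitor Tnfaip3 (1.84, 1.51 to 2.23) and Nfkbiz (1.72, 1.52 to 1.95). Without the members holding granule, cell cycle or MHC class II genes 4 of 19 were at least 1.5-fold higher, against 14.6% of all genes. Of 27 measured immediate early and stress genes 10 were at least 1.5-fold higher in the CCl4+IPA library, against 15.1% of all genes. Without those members 3 of 27 were, a share below the 14.6% of all genes. Egr1, an early growth response factor, stood at 649 CPM in CCl4+IPA and 323 CPM in CCl4 (ratio 2.01, 1.77 to 2.28), and Csrnp1 at 131 CPM in CCl4+IPA and 46.5 CPM in CCl4 (ratio 2.83, 2.05 to 3.93). The chaperones Hsp90aa1 and Hspa5 were lower, with ratios of 0.692 (0.590 to 0.810) and 0.685 (0.593 to 0.790). These genes also respond to tissue dissociation, whose part in the result was not tested. Arid5a, encoding an RNA-binding regulator of inflammatory transcripts, had a ratio of 2.43 (1.77 to 3.36).

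Adhesion and sensing genes lay closer to all genes. Of 20 measured chemokine receptor and adhesion genes 2 were at least 1.5-fold higher (against 15.1% of all genes), Fpr2 (1.89, 1.17 to 3.10) being 1 of them, and the list median was 0.35, or 0.21 above all genes. Of 16 measured pattern recognition genes 4 were at least 1.5-fold higher, against 15.1% of all genes: Nod1 (2.36), Clec4d (2.18), Myd88 (1.87) and Clec4e (1.60). With the members holding granule, cell cycle or MHC class II genes left out 3 of 15 were, against 14.6% of all genes, and Clec4e had a ratio of 1.44. Of 16 measured cathepsin and lysosome genes none reached 1.5-fold in either direction. Of 6 measured MHC class II genes none did either, and 4 members in each library held at least 10 UMIs of H2-Aa; a single cell held 44.4% of that gene's UMIs in the CCl4+IPA library and another 43.5% in the CCl4 library.

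**Figure D4:**
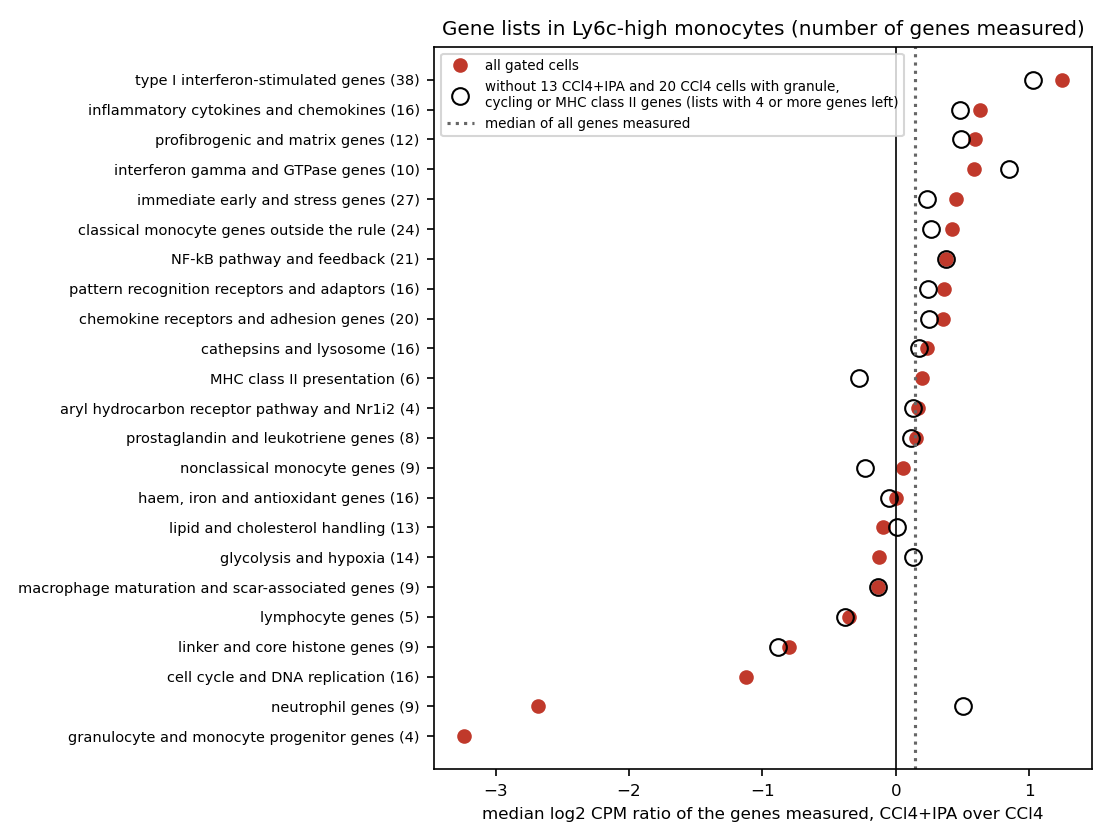
Median log2 CPM ratio of each gene list with at least 4 measured genes, CCl4+IPA over CCl4, in Ly6c-high monocytes, with the number of genes measured in parentheses. Filled circles use all gated cells and open circles leave out 13 CCl4+IPA and 20 CCl4 cells; the interferon list lies farthest right in both, at 1.25 and 1.03, and the neutrophil list moves across 0.

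IPA is known as a ligand of the aryl hydrocarbon receptor and of the pregnane X receptor, encoded by Ahr and Nr1i2, so their genes were read in the members. Ahr stood at 124 CPM in CCl4+IPA and 79.4 CPM in CCl4 (ratio 1.56, 1.18 to 2.06). Its ratio was 1.31 (0.976 to 1.76) without the members holding granule, cell cycle or MHC class II genes, an interval that included 1, and none of the 4 measured genes of this pathway reached 1.5-fold. Its usual target genes gave no detectable difference at this depth: Cyp1a1 and Cyp1b1 had no UMI in either library, Ahrr had 1 UMI in CCl4+IPA and 0 in CCl4, and Tiparp had a ratio of 1.15 (0.877 to 1.51). In the CCl4+IPA members no UMI allows up to 3.21 CPM and in the CCl4 members up to 2.41 CPM, at 3 UMIs. Nr1i2 had no UMI in either library.

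Hpgd (ENSMUSG00000031613), encoding the dehydrogenase that inactivates prostaglandin E2, had the lowest ratio of the 15 lower genes. There were 5 UMIs in 4 of 136 CCl4+IPA cells, against 180 UMIs in 40 of 135 CCl4 cells. The levels were 5.34 CPM (1.74 to 12.5) in CCl4+IPA and 144 CPM (124 to 167) in CCl4, so the CCl4 level was 27.0-fold higher (11.4 to 84.2). No CCl4 cell held more than 8.89% of its UMIs. Thinned to 1000 UMIs, 1.49% of CCl4+IPA and 12.1% of CCl4 members held it, against 0.0929% and 0.185% of B cells. Hpgd was also lower in Cd209a-positive dendritic cells, with 3 UMIs in CCl4+IPA and 315 in CCl4, and in nonclassical monocytes, with 7 in CCl4+IPA and 45 in CCl4. Of the other prostaglandin and leukotriene genes measured, none reached 1.5-fold except Ptgs2.

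Macrophage-type genes were mixed in direction, with 4 of 9 measured above 1. Of these genes of macrophage maturation and scar-associated macrophages, from 26 listed, 2 were at least 1.5-fold lower in the CCl4+IPA library (against 5.42% of all genes) and 1 at least 1.5-fold higher (against 15.1%), with a median log2 ratio of -0.14, or -0.28 relative to the median of all genes. Trem2, a lipid receptor of scar-associated macrophages, stood at 42.8 CPM in CCl4+IPA and 67.4 CPM in CCl4 (ratio 0.634, 0.424 to 0.935). It was found in 19.1% of CCl4+IPA and 39.3% of CCl4 cells, shares that were not thinned although the CCl4 members were deeper. Fabp5, a fatty acid-binding protein, had a ratio of 0.382 (0.266 to 0.539), and 0.958 without the members holding granule, cell cycle or MHC class II genes. Apoe, the lipid carrier, stood at 1397 CPM in CCl4+IPA and 1543 CPM in CCl4 (ratio 0.905, 0.843 to 0.972). Without those members Apoe and Trem2 had ratios of 0.751 (0.698 to 0.808) and 0.589 (0.375 to 0.911). Maf, a macrophage transcription factor, was higher, with a ratio of 1.80 (1.32 to 2.47).

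Several of the lowest ratios came from few cells. Of 4 measured granulocyte and monocyte progenitor genes 4 were at least 1.5-fold lower in the CCl4+IPA library, against 5.42% of all genes. Mpo, Elane, Prtn3 and Ctsg encode proteins of the primary granules. Mpo had 7 UMIs in 1 CCl4+IPA cell and 236 UMIs in 7 CCl4 cells, 1 of which held 73.7% of them. Elane had 43 UMIs in 5 CCl4+IPA cells and 355 UMIs in 9 CCl4 cells, and Prtn3 had 125 UMIs in 35 CCl4+IPA cells and 814 UMIs in 36 CCl4 cells. The alarmin gene S100a8, a neutrophil gene open to free RNA, had 158 UMIs in CCl4+IPA and 1636 in CCl4, of which 1 CCl4 cell held 64.1%.

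Members with at least 10 UMIs of granule genes numbered 6 in the CCl4+IPA library and 12 in the CCl4 library, where their median depth was 24878 UMIs against 8077 for the rest. Members with at least 3 UMIs of the division genes Mki67 and Top2a numbered 6 in CCl4+IPA and 12 in CCl4, and 3 CCl4+IPA and 8 CCl4 cells were in both sets. Together with the MHC class II-high cells these held 17.2% of member UMIs in CCl4+IPA and 29.0% in CCl4. Of 16 measured cell cycle genes 13 were at least 1.5-fold lower in the CCl4+IPA library, against 5.42% of all genes. Without these cells 3 cell cycle genes and 1 progenitor gene, Prtn3, were left to measure, and Prtn3 had a ratio of 1.03. S100a8 then had a ratio of 1.39. The count of genes at least 1.5-fold lower was then 110 of 4296 (2.56%), and that of genes at least 1.5-fold higher 628 (14.6%).

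Most linker and core histone genes of the list were lower with and without these cells. Of 9 measured 6 were at least 1.5-fold lower in the CCl4+IPA library (against 5.42% of all genes), and 5 of 8 without these cells (against 2.56%), with a median log2 ratio over all members' cells of -0.80, or -0.95 relative to the median of all genes. H1f4, a linker histone, stood at 107 CPM in 54 CCl4+IPA cells and 421 CPM in 96 CCl4 cells (ratio 0.254, 0.203 to 0.315), and had a ratio of 0.392 without those cells. H1f4 was lower in B cells too (ratio 0.394, 0.369 to 0.421) and in T cells (0.561, 0.515 to 0.611). H1f5 and H1f3 had ratios of 0.268 and 0.283. Outside the list, H2ac8, H4c4 and H2ac24 had ratios of 0.150, 0.286 and 0.342, and H2ac24 one of 0.773 (0.435 to 1.35) without those cells. Lars2, encoding the mitochondrial leucyl-tRNA synthetase, and Mir6236 had ratios of 0.251 (0.217 to 0.290) and 0.353 (0.299 to 0.415), and Lars2 was lower in every other gate. The lower mitochondrial share and Rn18s-rs5 level of the CCl4+IPA library moved in the same direction, and their part in these results was not tested.

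**Figure D5:**
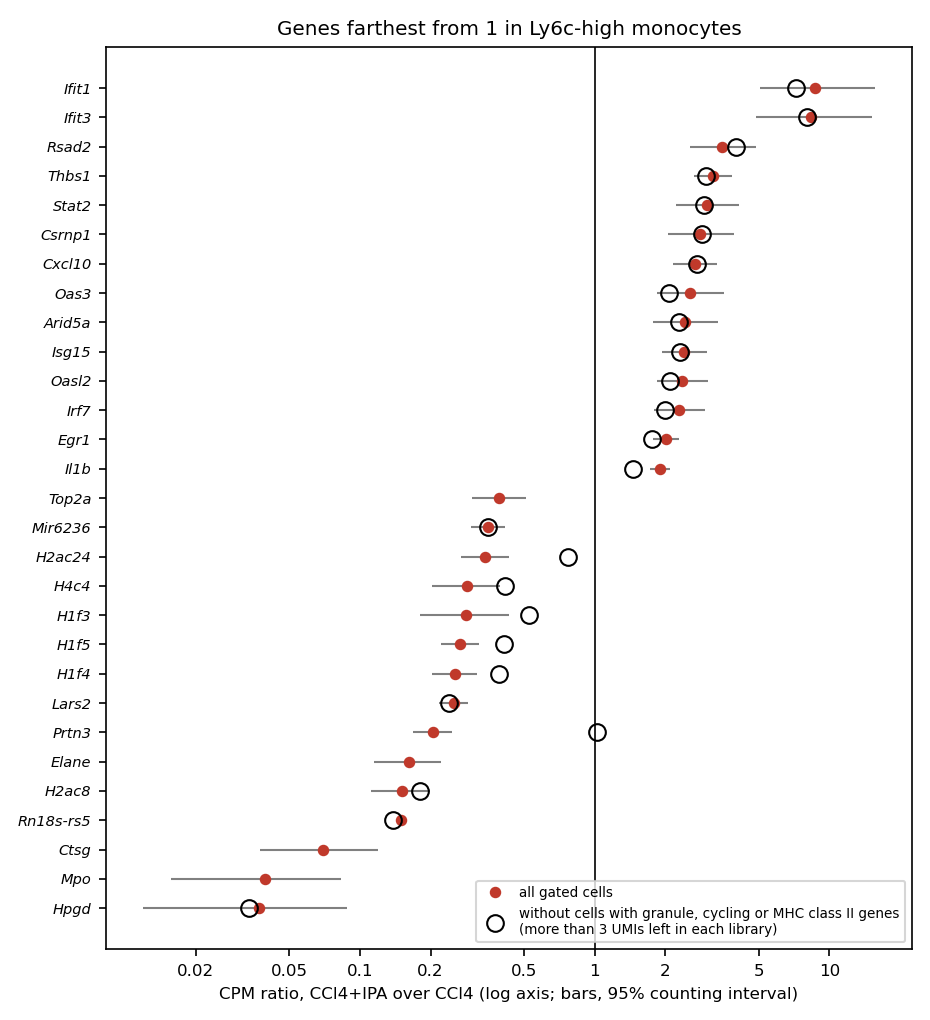
CPM ratio, CCl4+IPA over CCl4, of 14 of the 15 higher genes and the 15 lower genes farthest from 1, on a log axis with 95% counting intervals. Open circles leave out the cells with granule, cell cycle or many MHC class II transcripts; Thbs1 and Hpgd stay near 2.98 and 0.0336, while Prtn3 moves to 1.03.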

How the data were processed

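Liver cells were profiled with 10x Genomics 3′ V3 chemistry in 2 libraries, 1 per group; per the labels' protocols livers were digested with collagenase, red cells lysed and dead cells removed. The deposited files hold raw UMI counts for each gene in each barcode; per the file headers, Cell Ranger 7.1.0 wrote them. The build was mm9 according to the submitters' processing notes, while the gene identifiers in the files match a much later annotation. The build is therefore uncertain, and no coordinates of the files are printed. The treatment of intronic reads and the calling of cells are not stated there. UMIs were summed over the gated cells of each library and scaled to CPM. CPM has exact Poisson intervals, shares Clopper-Pearson intervals and ratios conditional binomial intervals, at 95%. A count of 0 was set at 3 UMIs in list medians. The depth was 935627 member UMIs in CCl4+IPA and 1246672 in CCl4, so 1 UMI was 1.07 and 0.802 CPM. No model was fitted. The functions were tested on simulated data.

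Named genes were the 15 higher and 15 lower whose interval bound nearest 1 was farthest from 1, with at least 100 CPM and 50 UMIs in the higher library, and up to 6 members per list. Left out were rule genes, globin, antigen receptor, mitochondrial and ribosomal protein genes, and gene models without a symbol, and genes over 10 times higher in another gate were given apart as open to free RNA. Not every gene so named is printed or drawn, some because they are not reported here, and some list members were named after their values were seen. Members and lists were chosen with earlier results of these data known. Scrublet, run through scanpy 1.11.5 as an alternative, called 3.16% of barcodes in CCl4+IPA and 2.70% in CCl4, among them 3 and 1 members; doublets stayed in otherwise. Software was Python 3.11.15, numpy 2.4.6, scipy 1.17.1, pandas 2.3.3 and matplotlib 3.10.9.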

Additional observations from a re-analysis of the deposited data

Results flagged for a closer look

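Some genes named in the Ly6c-high monocytes lay on the other side of 1 in another gated cell type of the same 2 libraries, with both counting intervals off 1. None of these differences was tested. Ifit1 was 8.66 in the members and 0.523 (0.364 to 0.731) in Cd209a-positive dendritic cells, as the ratio of CCl4+IPA over CCl4. Thbs1 was 3.18 in the members and 0.808 (0.668 to 0.975) in neutrophils. The granule genes Mpo, Elane and Prtn3 had ratios of 1.39, 3.56 and 1.66 in neutrophils and 0.0395, 0.161 and 0.205 in the members, where few cells held most of their UMIs. H1f5 was 6.29 (3.41 to 12.2) in nonclassical monocytes, from 41 UMIs in CCl4+IPA and 15 in CCl4, and 0.268 in the members. Top2a was 2.19 in Cd209a-positive dendritic cells and 2.97 in neutrophils, and 0.393 in the members.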

How the results depend on the processing

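No paired analysis was possible because each group has 1 library. The share ratio stayed within its interval under all 8 alternatives run, and the median log2 ratio of interferon-stimulated genes stayed between 0.92 (each cell thinned to 1000 UMIs) and 1.26 (without Scrublet doublets) over 14 alternatives. Counts of genes past 1.5-fold depended on the settings, beside 794 higher and 286 lower. Thinning left 98 higher and 41 lower genes with at least 50 UMIs. A minimum of 20 UMIs over both libraries gave 1460 and 722, and no minimum beyond 1 UMI gave 2413 and 1554. Dividing by the median of all genes gave 475 and 443. Leaving out cells with granule, cell cycle or MHC class II transcripts, added after seeing the data, gave 110 lower genes, and there the ratio of Prtn3 turned to 1.03; the cause was not tested. Of 415 recomputed ratios of the 30 named genes 373 stayed within their counting interval, 41 moved outside it without changing sides of 1, and 1 reversed. Part of the 373 was fixed in advance. Dropping the filter added no member, leaving out shared barcodes removed none, and the minimums of 20 UMIs and 1 UMI do not enter a gene's ratio. Under each of these settings all 30 ratios were bound to stay. Precision is limited by 136 and 135 cells of 1 library each, and the spread between animals is unknown.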

Other observations

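Genes of glucose and redox metabolism were not a group of one direction in the Ly6c-high monocytes. Of 14 measured glycolysis and hypoxia genes 3 were at least 1.5-fold higher in the CCl4+IPA library, near the 15.1% of all genes: Hif1a, the hypoxia-inducible factor (ratio 1.84, 1.38 to 2.45), Pfkp (1.57, 1.15 to 2.15) and Pfkfb4 (1.87, 1.21 to 2.94). Gapdh, at 757 CPM in CCl4+IPA and 918 CPM in CCl4, and Aldoa had ratios of 0.825 (0.750 to 0.906) and 0.755 (0.647 to 0.880). Without the members holding granule, cell cycle or MHC class II genes these ratios were 1.01 (0.900 to 1.14) and 0.868 (0.724 to 1.04), with intervals that included 1. Gsr, glutathione reductase, stood at 866 CPM in CCl4+IPA and 510.2 CPM in CCl4 (ratio 1.70, 1.53 to 1.89), and the cystine transporter gene Slc7a11 had a ratio of 2.60 (1.48 to 4.70). Hmox1, which degrades haem, had a ratio of 0.685 (0.487 to 0.953) and the metallothionein gene Mt1 0.644 (0.491 to 0.838).

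In 13 measured genes of lipid and cholesterol handling 2 were at least 1.5-fold lower in the CCl4+IPA library, Fabp5 and Insig1 (against 5.42% of all genes). None was at least 1.5-fold higher. Without the members holding granule, cell cycle or MHC class II genes 1 of 12 was at least 1.5-fold lower, against 2.56% of all genes. Fabp5 then had a ratio of 0.958 (0.575 to 1.59), and Insig1 was below the minimum, with 12 UMIs in CCl4+IPA and 28 in CCl4. Npc2, a cholesterol transfer protein of the lysosome, stood at 1580 CPM in CCl4+IPA and 1116 CPM in CCl4 (ratio 1.42, 1.31 to 1.52). Casp4, which encodes the sensor of cytosolic lipopolysaccharide, had a ratio of 1.96 (1.48 to 2.61).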
